A study of Mus musculus with 26 samples.

Results

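Cohesin sites and accessible chromatin were set side by side in myotubes of C2C12, a mouse myoblast line whose cells fuse into multinucleate muscle fibres in culture. Cohesin was mapped by ChIP-seq of SMC3 in 2 libraries, and accessibility by ATAC-seq in 2 libraries of myotubes transfected with control, so 4 of the 26 samples of the series entered the comparison. The labels give no transfection for the SMC3 samples, which means that the assays may differ in that handling. Myotubes of both assays were kept in 2% horse serum with insulin-transferrin-selenium after growth in 20% serum. For ChIP, cells were fixed in 1% formaldehyde and chromatin was sonicated to 250 bp. For ATAC, isolated nuclei were treated with the Tn5 transposase. C2C12 is a single immortal line. No label says that the replicates came from different cultures, and their spread may therefore be only technical. The labelled cell type was not checked against marker genes, because the files hold peak positions without gene names.

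A region was defined as the merged interval of overlapping peaks that both libraries of an assay called, on chromosomes 1 to 19 and X of build mm9. By this rule 13885 SMC3 regions were kept of 27794 called in at least 1 library, and 38788 ATAC regions of 116704. The rule uses the calls of each assay alone and not the overlap between them.

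Cohesin is a ring-shaped complex of the SMC1 and SMC3 ATPases closed by a kleisin subunit. It holds sister chromatids together in dividing cells, and in all cells it extrudes chromatin loops until it is stopped, most often at sites bound by the insulator protein CTCF. Cohesin is also found at enhancers and promoters, where it is loaded and where it holds loops between them. ATAC-seq marks the stretches of DNA that nucleosomes leave free, which are mainly promoters, enhancers and sites of strongly bound factors. In muscle cells these include the elements used by the myogenic regulators. The overlap of the maps therefore describes how many cohesin sites lie on DNA that is also called open, and where the others lie relative to it.

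The replicates of each assay differed in length. The SMC3 lists held 15056 and 26765 peaks, and the ATAC lists 58137 and 99547 peaks after 1 peak outside the chromosomes used was left out of each. Nearly all of the shorter SMC3 list was contained in the longer one: 92.4% of the peaks of replicate 1 overlapped a peak of replicate 2, and 52.3% the other way round. For ATAC the shares were 68.0% and 40.4%. No interval recurred exactly between the SMC3 lists and 1 did between the ATAC lists, so neither pair was a repeat deposit. Read counts were not part of the lists, so depth is unknown, and more peaks in a list need not mean more sites.

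One SMC3 region in 4 lay on open chromatin by this measure. Of the 13885 SMC3 regions, 3495 overlapped an ATAC region by at least 1 bp, which is 25.2% (exact 95% interval 24.5 to 25.9). Seen from the other side, 3644 of 38788 ATAC regions overlapped an SMC3 region, which is 9.39% (9.11 to 9.69). The intervals cover counting error only, and neighbouring regions are not independent. ATAC regions covered 45.2 Mb, or 1.75% of the 2578.5 Mb spanned by peaks of any list, and 20.9% of the bases in SMC3 regions fell inside them. A window of 250 bp on each side of the SMC3 midpoint touched an ATAC region in 23.8% of cases. For all positions from the first to the last ATAC region of each chromosome, that share was 2.50%. Cohesin sites thus met accessible regions at several times the share of the genome, while 10390 of them met none.

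The share depended on the libraries chosen more than on counting error. With peaks of single libraries in place of regions, 28.1% of the peaks of SMC3 replicate 1 overlapped ATAC replicate 1 and 52.6% overlapped ATAC replicate 2. For SMC3 replicate 2 the shares were 42.6% and 62.7%. The mean of the 4 pairs was 46.5% with an SD of 14.8 percentage points (n = 4 pairs, which share libraries). With the lists of an assay cut to the length of the shorter one, best scores first, the pairs gave 28.1%, 35.6%, 36.2% and 44.7%. Replicate 2 of either assay gave the larger share in all of these pairs, also at equal length. Counted over ATAC peaks, the 4 pairs gave 7.76%, 8.81%, 20.7% and 18.5% in the same order, with a mean of 13.9% and an SD of 6.61. Regions called in both libraries are therefore a strict set, and their overlap of 25.2% lay below every single pair.

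How many ATAC libraries had a peak in a cohesin site separated the SMC3 regions further. Peaks of both ATAC libraries touched 3529 SMC3 regions (25.4%), and peaks of neither touched 6051 (43.6%). A peak of ATAC replicate 2 alone touched 3933 (28.3%), and one of replicate 1 alone 372 (2.68%). More SMC3 regions thus had an accessible peak in the longer ATAC list alone than in both lists. The median width was 1574 bp where both ATAC libraries had a peak, 1216 bp where replicate 2 alone did and 1152 bp where neither did.

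SMC3 peaks that were called in replicate 2 alone lay on open chromatin much more often than the replicated ones. Of 12766 such SMC3 regions, 7400 overlapped an ATAC region called in both libraries, which is 58.0% (57.1 to 58.8), against 25.2% of the regions of both SMC3 libraries. Of 1143 regions called in SMC3 replicate 1 alone, 321 did (28.1%; 25.5 to 30.8). The split by library was chosen after the overlap values had been seen. Score rank did not remove it. Inside each quintile of peaks of SMC3 replicate 2 by score, those absent from replicate 1 overlapped ATAC regions in 56.2% to 68.2% of cases, and those shared with replicate 1 in 18.6% to 31.3%. The direction was the same in all 5 quintiles. For the lower-scoring 3 quintiles of replicate 1, the corresponding shares were 30.7%, 23.9% and 19.8% for absent peaks and 27.4%, 24.2% and 24.2% for shared ones, and the upper quintiles held 13 and 1 absent peaks. Width was not held fixed in this split. In replicate 2 the absent peaks were wider than the shared ones in each quintile. The medians were 1060 against 879 bp in the lowest quintile and 2023 against 1236 bp in the highest. In the lower-scoring 3 quintiles of replicate 1 the absent peaks were narrower, at 979, 1018.5 and 1048 bp against 1096, 1117 and 1155 bp. The excess was thus seen in every quintile of replicate 2. In replicate 1 it was much smaller, at 28.1% of absent against 24.9% of shared peaks. Among the lower-scoring 3 quintiles of replicate 1, only the lowest had it. The cause of the excess was not tested.

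**Figure D1:**
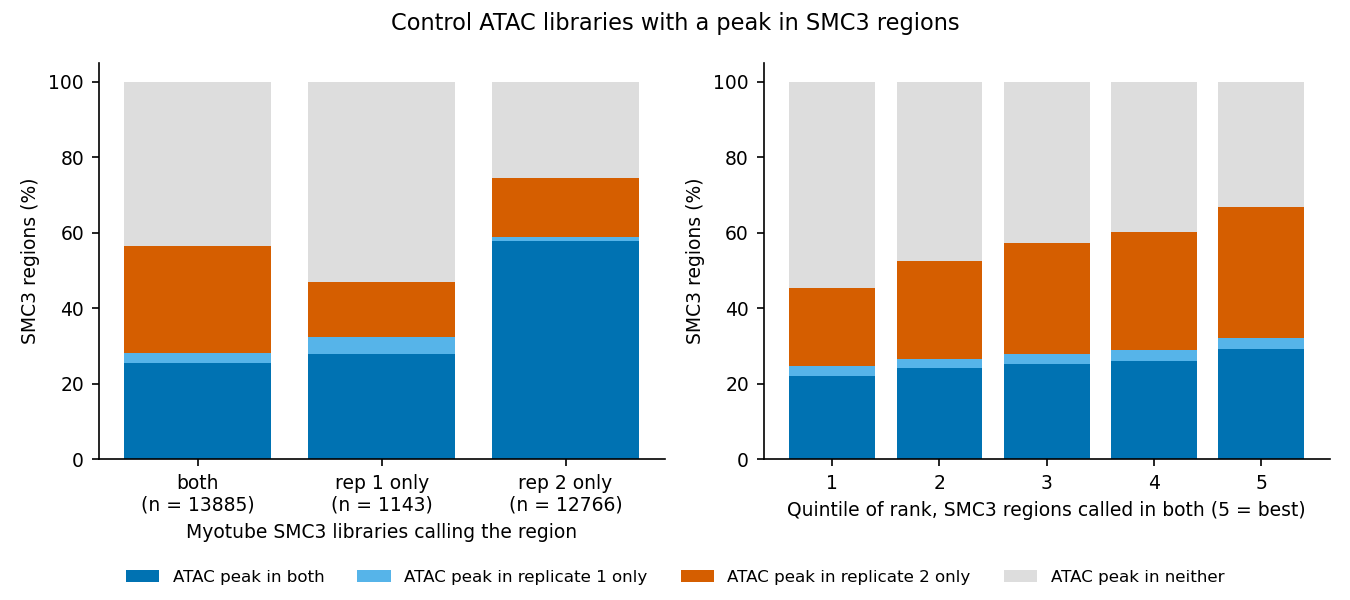
Share of SMC3 regions (y axis, percent) with an ATAC peak of both, 1 or neither control library, as stacked bars. On the left, regions are split by the SMC3 libraries that called them, and on the right the 13885 regions of both libraries are split by rank quintile. Regions called in SMC3 replicate 2 alone carry peaks of both ATAC libraries in 57.8% of cases, and from worst to best rank the share with no ATAC peak goes from 54.7% to 33.2%.

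Width separated SMC3 regions with and without ATAC most clearly. Regions that overlapped ATAC had a median width of 1571 bp (quartiles 1247 to 2343.5), and those that did not 1178 bp (1075 to 1293.75). Of the overlapping regions 14.4% were at least 3 kb wide, against 0.423% of the others. In deciles of width, from narrowest to widest, the share that overlapped ATAC was 5.76%, 9.86%, 10.2%, 13.5%, 13.5%, 17.4%, 19.5%, 33.5%, 50.4% and 78.1%. Most of that climb fell in the last 3 deciles, which begin at 1348 bp.

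A wider region meets other intervals more often by geometry alone, so a fixed window was read as well. The window of 250 bp on each side of the midpoint touched ATAC in 5.62% of the narrowest and 68.9% of the widest decile. The gradient was thus nearly as steep when every region was given the same width. Between the widest and the narrowest quintile the share differed by 56.5 percentage points, and by 51.7 to 69.0 points in the 4 library pairs (SD 7.59). The difference was positive on 20 of 20 chromosomes, from 38.8 to 73.1 points. It was several times the spread between library pairs.

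In classes of width, 86 of 1445 regions under 1000 bp overlapped ATAC (5.95%; 4.79 to 7.30). Of the 1412 regions from 1500 to 2000 bp 47.3% did, and of the 996 from 2000 to 3000 bp 68.5%. From 3000 to 5000 bp the share was 91.2% (415 of 455; 88.2 to 93.6), and at 5000 bp or more 95.7% (88 of 92; 89.2 to 98.8). Most broad SMC3 regions therefore overlapped accessible chromatin. The classes are of whole regions, and the fixed window was read by decile only, where the widest reached 68.9%. Broad regions also held more than 1 ATAC region more often: 19.6% of those of 5000 bp or more held at least 2, against 1.27% of those from 1500 to 2000 bp.

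**Figure D2:**
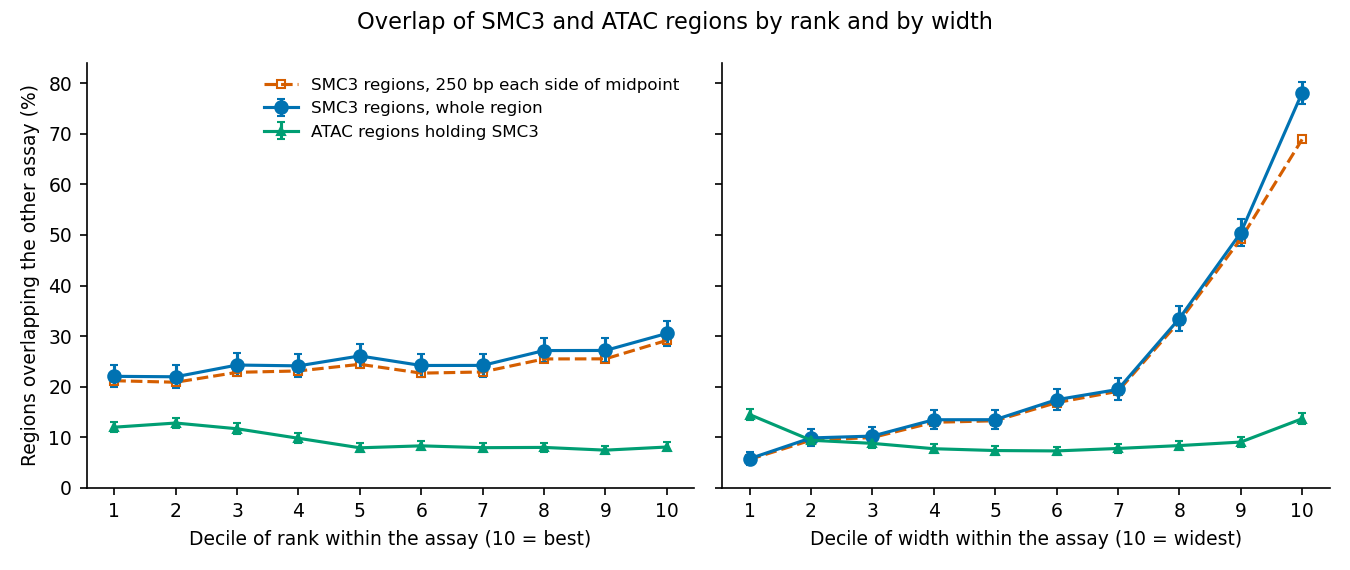
Share of regions that overlap a region of the other assay (y axis, percent) by decile of rank (left) and of width (right), with exact 95% intervals as bars. For SMC3 regions the share goes from 5.76% in the narrowest to 78.1% in the widest decile and from 22.0% to 30.5% over deciles of rank, and for ATAC regions it is highest in the narrowest (14.5%) and the widest decile (13.7%).

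Rank changed the overlap far less than width did. The rank of a region was the mean, over the 2 libraries, of the percentile that its best-scoring peak took in its own list, with 100 for the best score. From the worst to the best decile of rank the share of SMC3 regions on ATAC was 22.0%, 22.0%, 24.3%, 24.1%, 26.1%, 24.2%, 24.2%, 27.1%, 27.2% and 30.5%. The best quintile lay 6.84 percentage points above the worst. That difference was smaller than the SD of 11.4 points among the 4 library pairs, which ranged from -16.5 to 11.4 points. It was positive on 17 of 20 chromosomes. Without SMC3 replicate 1 it was -18.2 points, without SMC3 replicate 2 -2.30, and without ATAC replicate 1 21.4, so no direction with rank can be given for cohesin sites as such.

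The ranks in the 2 SMC3 lists behaved differently. In replicate 1 the median percentile was 52.7 for regions on ATAC and 53.9 for the others. In replicate 2 it was 78.0 and 70.3. The higher mean rank of SMC3 regions on open chromatin, 63.9 against 60.6, thus came from the scores of replicate 2. Rank also went with the ATAC library that had a peak. From the worst to the best quintile, an ATAC peak of replicate 2 alone was found in 20.5%, 25.8%, 29.5%, 31.2% and 34.7% of SMC3 regions, while peaks of both libraries were found in 22.0%, 24.3%, 25.4%, 26.2% and 29.2%. Strong cohesin sites thus differed from weak ones more in accessible peaks that the longer ATAC list held alone than in peaks of both lists.

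Rank and width were related among SMC3 regions (Spearman's rho 0.42 over 13885 regions, a description across regions that share 2 libraries), and the overlap had to be read in both at once. In the widest quintile, from worst to best rank, 76.0%, 74.3%, 67.1%, 60.7% and 52.8% of SMC3 regions overlapped ATAC. In the narrowest quintile the order ran the other way, at 5.95%, 8.81%, 9.22%, 12.6% and 12.7%, and the best-ranked of these classes held only 71 regions. In the fourth width quintile the share was 53.5% at the worst rank and 22.8% at the best. Among wide SMC3 regions, those with low scores were therefore on open chromatin more often than those with high scores. Width still varied inside the widest quintile, from 1540 to 10559 bp. The median rank was 71.9 for regions of 1500 to 2000 bp, 63.4 from 3000 to 5000 bp and 66.4 at 5000 bp or more. The part of this remaining width in the order by rank was not tested. Inside the widest quintile the best-ranked regions lay below the worst-ranked on 19 of 20 chromosomes and in all 4 library pairs, by -28.5, -11.5, -17.8 and -7.42 points. Inside the narrowest quintile this was so on 10 of 19 chromosomes with both classes, and the pairs gave 4.99, 11.9, -1.23 and 13.1 points.

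**Figure D3:**
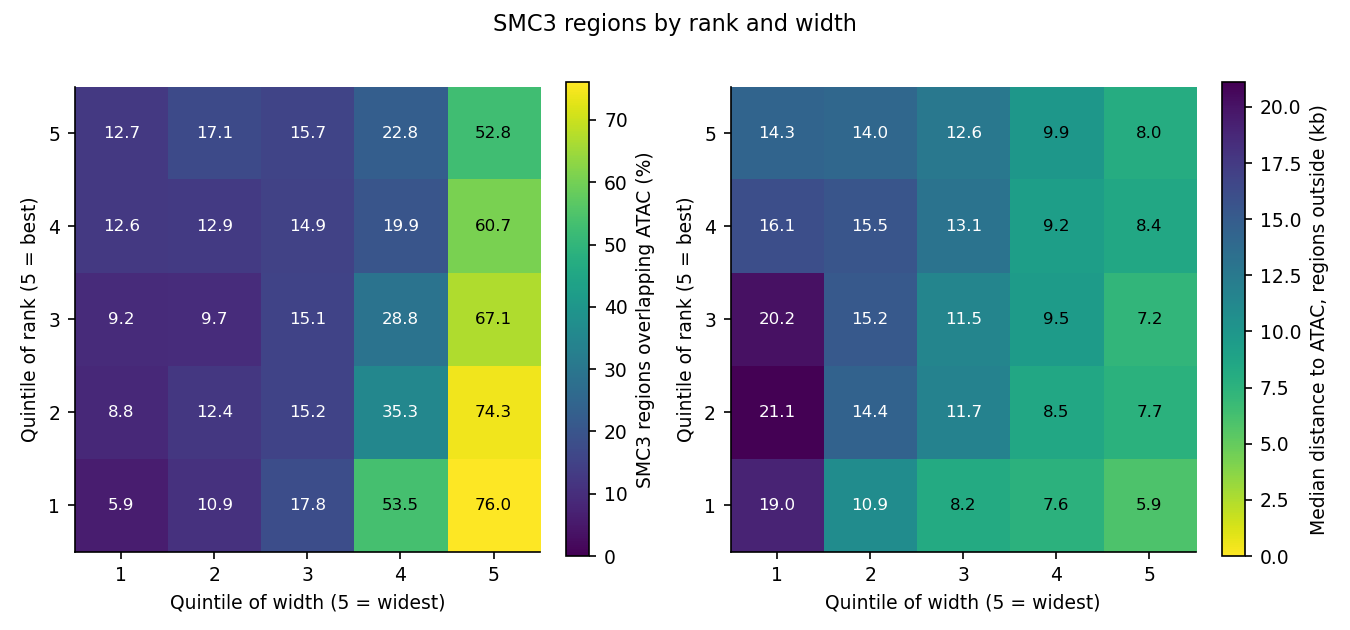
SMC3 regions by quintile of width (x axis) and of rank (y axis). The left panel gives the percent that overlap an ATAC region, highest at 76.0% for wide regions of low rank, and the right panel the median distance in kb to the nearest ATAC region among regions outside ATAC, which is shorter toward the wide side.

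The 10390 SMC3 regions outside ATAC were not spread evenly with respect to it. Their median distance to the nearest ATAC region, edge to edge, was 12821.5 bp (quartiles 5084.25 to 28694). Within 1 kb lay 4.70%, within 5 kb 24.6%, within 10 kb 42.3%, within 50 kb 87.6% and within 100 kb 95.7%. The remaining 444 were farther away, and 20 of them were over 500 kb from any ATAC region. For comparison, the bases in the gaps between neighbouring ATAC regions had a median distance of 43634 bp (11759 to 216455), against 13446.5 bp from the midpoints of these SMC3 regions. Cohesin sites outside the ATAC regions of both libraries thus lay closer to them than the bases of these gaps, yet few were directly beside one. Many of them did carry an ATAC peak of a single library, since only 6051 SMC3 regions had no peak of either.

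The distance shrank with the ATAC list used. Without ATAC replicate 2 the median distance of SMC3 regions outside the remaining peaks was 8737.5 bp, and without ATAC replicate 1 it was 4915 bp. To the nearest peak of either ATAC library, the 6051 SMC3 regions with no such peak had a median distance of 4150 bp. The median over the 4 library pairs averaged 6743.88 bp with an SD of 2186.39. The absolute distance therefore depends on how many ATAC peaks are allowed, and only the order among SMC3 regions is read here.

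Wider SMC3 regions lay closer to ATAC even when they did not touch it. From the narrowest to the widest quintile of width, the median distance of the regions outside ATAC was 19325, 13928.5, 11823.5, 9464.5 and 8002 bp. The difference between widest and narrowest was -11323 bp, in the same direction on 20 of 20 chromosomes and in all 4 library pairs, which gave -6620.5 to -4069 bp. From worst to best rank the medians were 14341.5, 14341, 13142, 11882 and 10612.5 bp. The difference between best and worst was -3729 bp, in the same direction on 19 of 20 chromosomes and in the 4 pairs, which gave -2211 to -541 bp. Over the 10390 regions, Spearman's rho with distance was -0.24 for width and -0.10 for rank. Both relations described the order of many regions and left a wide spread.

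The profile of ATAC around SMC3 midpoints was narrow. An ATAC region covered 22.2% of the midpoints themselves, 12.4% of positions 500 bp away, 5.35% at 1000 bp and 3.14% at 2000 bp. Farther out the coverage was 3.87% at 10000 bp, 3.95% at 20000 bp and 2.45% at 500000 bp, against 1.75% over the spanned genome. So the enrichment was centred on the cohesin site, with a shallow dip at 2000 bp and a low plateau beyond. In the narrowest quintile of width, coverage was 7.45% at the midpoint and 0.756% at 750 bp, below its value of 3.06% at 20000 bp. In the widest quintile it was 51.9% at the midpoint and still 21.4% at 1000 bp.

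**Figure D4:**
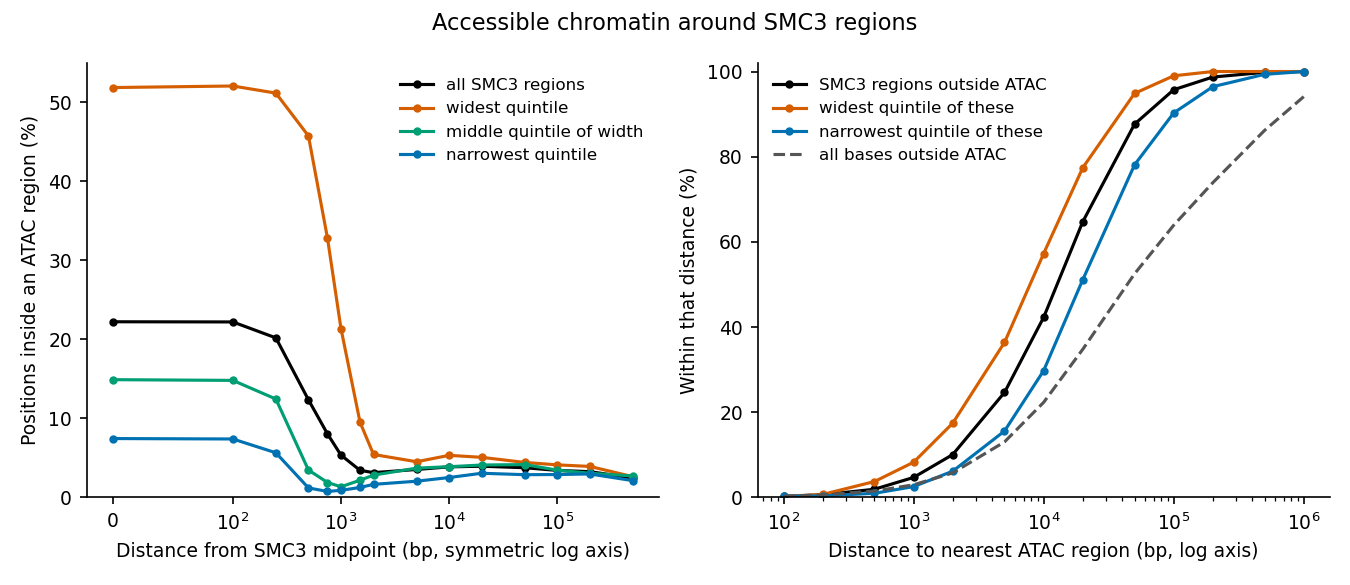
Left: share of positions inside an ATAC region (y axis, percent) at set distances from SMC3 midpoints (x axis, bp), for all SMC3 regions and for 3 quintiles of width. Right: cumulative share (y axis, percent) of SMC3 regions outside ATAC, and of all bases outside ATAC (those between neighbouring ATAC regions), within a distance (x axis, bp, log scale) of the nearest ATAC region. Of these SMC3 regions, measured from their edges, 42.3% lie within 10 kb, against 22.3% of the bases.

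Where the assays met, the accessible stretch usually lay inside the cohesin region. Among 3646 overlapping pairs, the ATAC region was wholly inside the SMC3 region in 2719 (74.6%), the SMC3 region inside the ATAC region in 67 (1.84%), and the overlap was partial in 860 (23.6%). The median shared length was 948 bp. The midpoints were 146 bp apart at the median (quartiles 58 to 381.75), and within 250 bp in 64.8% of pairs. Most SMC3 regions on ATAC held 1 ATAC region (3347, or 95.8%), 145 held 2 and 3 held 3. In the 4 narrower quintiles of SMC3 width the median offset was 71 to 92 bp, and in the widest 279 bp.

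High rank in one assay did not go with high rank in the other where they overlapped. The ATAC regions inside the worst-ranked quintile of SMC3 regions had a median ATAC rank of 75.7, and the values for the next quintiles were 67.6, 66.4, 63.1 and 60.5. Over the 3495 overlapping SMC3 regions, Spearman's rho between SMC3 rank and ATAC rank was -0.15, and between the widths it was 0.62. In 83 pairs both regions belonged to the best rank quintile of their assay. In 257 pairs a best-quintile SMC3 region met a worst-quintile ATAC region, and in 158 pairs a worst-quintile SMC3 region met a best-quintile ATAC region. Pairs with both regions in the worst quintile numbered 128. Of all 3646 pairs, 602 held a best-quintile and 963 a worst-quintile ATAC region. Among the 831 pairs of best-quintile SMC3 regions, 9.99% met the best ATAC quintile and 30.9% the worst. Among the 630 pairs of worst-quintile SMC3 regions, these shares were 25.1% and 20.3%.

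Seen from the ATAC regions, the dependence on rank changed in size and sign with the libraries used. From the worst to the best decile of ATAC rank, 12.0%, 12.8%, 11.7%, 9.80%, 7.91%, 8.30%, 7.94%, 7.99%, 7.45% and 8.07% overlapped an SMC3 region. The best quintile lay 4.64 points below the worst (a difference of -4.64, negative on 20 of 20 chromosomes). Without SMC3 replicate 1 the difference was 23.0 points: peaks of SMC3 replicate 2 touched 42.2% of the best-ranked ATAC quintile and 19.1% of the worst. Without SMC3 replicate 2 it was -4.82 points, and peaks of replicate 1 touched 8.31% and 13.1%. Leaving out an ATAC library turned the sign as well, to 1.70 points without replicate 1 and 3.19 without replicate 2. With single libraries on both sides the difference was positive in all 4 pairs, at 3.65 and 2.13 points for SMC3 replicate 1 and 32.8 and 25.6 for SMC3 replicate 2 (mean 16.0, SD 15.5). The lower share at high rank was thus seen only with ATAC regions called in both libraries, set against SMC3 regions of both libraries or peaks of SMC3 replicate 1. Peaks of SMC3 replicate 2 gave the opposite sign at the same ATAC regions. No direction with ATAC rank can therefore be given.

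By ATAC width, the share with SMC3 was 14.5% in the narrowest decile, 7.30% to 7.37% in the middle deciles and 13.7% in the widest. The widest quintile differed from the narrowest by -0.59 points, with 10 of 20 chromosomes on that side. The 4 library pairs gave 5.69, 2.88, 33.1 and 27.6 points, and without SMC3 replicate 1 the difference was 27.0, so this contrast too depended on the libraries. Most accessible regions carried no cohesin call at all: 27284 (70.3%) had no SMC3 peak of either library, and another 7582 (19.5%) had one of replicate 2 alone. ATAC regions without an SMC3 region had a median distance of 34869.5 bp to the nearest one. From SMC3 regions outside ATAC the median distance to ATAC was 12821.5 bp, but ATAC regions outnumber SMC3 regions.

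The best-ranked SMC3 regions on open chromatin show these relations one by one. The first lay at chr8:95341586-95343141 (mm9, 1556 bp), at rank percentiles of 99.97 and 99.99 in the 2 SMC3 lists, and held 1 ATAC region of 818 bp at an ATAC rank of 79.8. The second, chr16:30062333-30071529, was 9197 bp wide and is also the fifth widest SMC3 region on ATAC. Its ATAC region of 5195 bp had a rank of 51.4, from 31.6 in replicate 1 and 71.3 in replicate 2. The third, chr11:120636940-120638214, was 1275 bp wide and held an ATAC region of 528 bp at rank 54.95. Across the 10 best-ranked SMC3 regions on ATAC, the ATAC rank ran from 38.5 to 79.8, so none of them met an ATAC region of the best rank quintile, which began at 88.7. Over the 831 pairs of best-quintile SMC3 regions 9.99% met that quintile, and 10 regions are too few to differ from this share. The annotation of build mm9 was not used here, and no gene is named for these positions.

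Some of the strongest cohesin sites had no accessible peak near them in either library. The best-ranked SMC3 region with no ATAC peak of either library within 10 kb was chr12:82083033-82084229 (1197 bp), at percentiles of 98.6 and 99.6. Its nearest ATAC region was 35375 bp away and its nearest single-library peak 23344 bp. The next was chr5:35937928-35939376 (1449 bp, mean percentile 98.5), with the nearest ATAC region at 11686 bp. The 10 best of this kind were 1162 to 1660 bp wide and had mean percentiles of 97.5 to 99.1. In all, 1502 SMC3 regions (10.8%) had no ATAC peak of either library within 10 kb, with a median rank of 52.0 and a median width of 1113.5 bp, and 105 (0.756%) had none within 50 kb.

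The SMC3 region farthest from an ATAC region was chr3:3751220-3752331, at 937037 bp. A peak of at least 1 ATAC library nevertheless touched it, so that distance rests on the demand for a region called in both libraries. The same held for the third farthest, chr4:112463037-112463862, while the second, chr1:25673472-25674390, was 915932 bp from an ATAC region and 16516 bp from a single-library peak.

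The widest SMC3 region on ATAC was chr11:117171747-117182305, with 10559 bp and 2 ATAC regions. Its SMC3 percentiles were 14.0 in replicate 1 and 85.5 in replicate 2, so the lists ranked it far apart. The widest SMC3 region with no ATAC region was chr11:102177100-102182743 (5644 bp), at 14.6 and 84.1, and a peak of at least 1 ATAC library touched it too. All 5 of the widest SMC3 regions without ATAC, 4810 to 5644 bp wide, were touched by a peak of at least 1 ATAC library. Of the 3 SMC3 regions with 3 ATAC regions each, chr6:120140349-120144108 (3760 bp) ranked best, at 96.4.

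The 5 best-ranked ATAC regions with SMC3 met cohesin sites of middle or low rank. The best-ranked ATAC region with SMC3, chr16:38087712-38090246 (2535 bp), had ATAC percentiles of 99.99 and 99.97 and met an SMC3 region at a rank of 20.8. The second, chr1:179552793-179554400, met one at 26.8. The SMC3 ranks at these 5 ran from 5.13 to 43.1, while over the 602 pairs of the best ATAC rank quintile the median SMC3 rank was 54.2. The best-ranked ATAC region with no SMC3 peak of either library within 10 kb was chr1:24618477-24620769 (2293 bp), whose nearest SMC3 peak lay 19451 bp away.

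Averages of the overlap by chromosome lay within a narrow range. By chromosome, 21.2% (chromosome 7) to 31.2% (chromosome 16) of SMC3 regions overlapped ATAC, with a median of 24.9%, and 6.96% (X) to 10.9% (chromosome 16) of ATAC regions overlapped SMC3. The median distance of SMC3 regions outside ATAC was shortest on chromosome 15, at 8513 bp, and longest on X, at 21545 bp. X also had the fewest regions of both assays per Mb, 1.71 for SMC3 and 5.62 for ATAC, whereas chromosome 11 had 8.86 SMC3 and 20.3 ATAC regions per Mb.

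Other libraries of the series gave readouts that the choice of regions had not used. In myoblasts, the undifferentiated cells, 94.1% of the myotube SMC3 regions had an SMC3 peak in both libraries. The share was 90.01% (88.97 to 90.99) for those on ATAC and 95.47% (95.05 to 95.86) for the others. The gap lay at low rank: in the worst rank quintile the shares were 63.5% and 85.0%, and in the best 99.8% and 99.8%. Each myoblast library alone gave the same order. Replicate 1 had a peak in 95.6% of the SMC3 regions, 91.0% of those on ATAC and 97.1% of the others, and replicate 2 in 96.1%, 94.6% and 96.6%. So weak cohesin sites of myotubes were less often already called in myoblasts where they lay on open chromatin, a comparison of shares over regions with no test over cultures.

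In myotubes with siDRR, a knockdown of the DRR enhancer RNA, 51.5% of the SMC3 regions had an SMC3 peak in both libraries, with 50.7% (49.1 to 52.4) on ATAC and 51.7% (50.7 to 52.7) off it. The intervals of these shares overlapped over all regions. Within rank quintiles the share in both libraries was lower on ATAC in each of the 5, but the 2 libraries did not share this order. From worst to best rank the share was 11.5%, 28.4%, 45.4%, 69.3% and 87.5% on ATAC and 14.7%, 36.0%, 51.1%, 70.3% and 90.2% off it. Regions are not replicates of the knockdown, so no effect of siDRR is read from this order. The siDRR replicates differed strongly, with a peak in 52.1% of the SMC3 regions in replicate 1 (51.1% on ATAC, 52.5% off it) and in 92.9% in replicate 2 (93.8% and 92.6%). Replicate 1 alone had the lower share on ATAC in each rank quintile, with 28.9% against 37.0% in the second. Replicate 2 did not: its share was higher on ATAC in the worst quintile (73.3% against 72.5%) and the second (94.9% against 93.4%). In the best quintile it was 100% on both sides. DRR RNA itself was mapped by ChIRP-seq with 2 probe pools, whose lists differed much in length. Pool 1 held 3765 and 68166 summits in replicates 1 and 2, and pool 2 held 22983 and 20204. Few SMC3 regions met these summits, at shares near those of ATAC regions. The number of summits found in both pools is not given here. Widened ChIRP summits of both pools met 42 SMC3 regions (0.302%): 23 of 3495 on ATAC (0.658%; 0.418 to 0.986) and 19 of 10390 off it (0.183%; 0.110 to 0.285). With summits found in both replicates of pool 2, the background was 1.65% of SMC3 regions, and the shares were 2.63% and 1.32%. SMC3 regions on ATAC were also wider, at a median of 1571 against 1178 bp. The part of width and of list length in these shares was not tested. Of all ATAC regions, 0.281% met summits of both pools and 1.58% those of pool 2, with 0.274% and 1.84% at ATAC regions that carried SMC3. The libraries of the LacZ control probes were not analysed here, and no background of the ChIRP assay stands beside these values.

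ATAC regions were also followed into the knockdowns. With siDRR, 72.3% of the control ATAC regions had an ATAC peak in both libraries: 77.3% (75.9 to 78.7) of those with SMC3 and 71.7% (71.3 to 72.2) of those without. By library, replicate 1 had a peak in 73.2% (77.9% with SMC3, 72.7% without) and replicate 2 in 93.3% (97.3% and 92.8%). In the worst ATAC rank quintile the shares in both libraries were 48.9% and 30.2%, and in the best 99.3% and 98.9%. With siSmc3, a knockdown of the SMC3 subunit, the background was 66.1%, with 67.6% (66.1 to 69.2) and 65.9% (65.4 to 66.4). Replicate 1 had a peak in 67.5% (68.5% with SMC3, 67.4% without) and replicate 2 in 90.3% (94.2% and 89.9%). In the worst quintile the shares in both libraries were 36.4% and 26.5%, and in the best 96.5% and 97.3%. Weak accessible regions were thus called again more often where a cohesin site lay on them, in both knockdowns. The 2 knockdowns share the control libraries that define the ATAC regions.

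Taking each list by itself, all 6 ATAC lists touched the best-ranked SMC3 quintile more often than the worst. Control lists touched 28.1% and 53.7% of SMC3 regions, siDRR lists 34.3% and 63.2%, and siSmc3 lists 30.1% and 60.4%, in replicates 1 and 2. Cut to the 58137 best peaks each, they touched 28.1% and 36.1%, 31.5% and 45.1%, and 25.4% and 39.3%. Replicate 2 touched more SMC3 regions than replicate 1 in each group, also at equal length, and with full lists the gap between replicates was larger than that between groups. For SMC3 lists against ATAC regions the values were 23.1% and 32.8% in myoblasts, 10.1% and 28.7% in myotubes and 5.48% and 23.6% with siDRR. At 8384 peaks each, all 6 lay between 5.48% and 7.50%. Replicate 1 of the myotube and the siDRR SMC3 lists touched the worst-ranked ATAC quintile more often than the best, and the other 4 SMC3 lists the reverse.

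**Figure D5:**
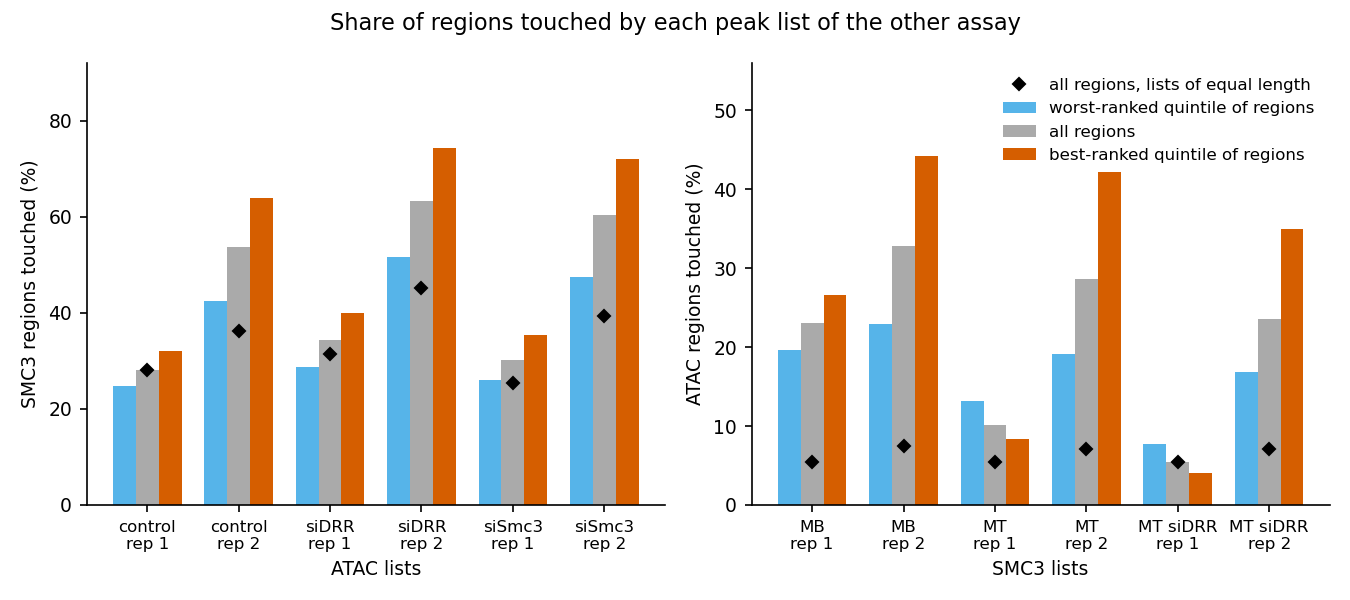
Share (y axis, percent) of SMC3 regions touched by each ATAC list (left) and of ATAC regions touched by each SMC3 list (right), for all regions and for the worst- and best-ranked quintile, with diamonds for lists cut to equal length (MB, myoblasts; MT, myotubes). In the left panel replicate 2 stands above replicate 1 in every group, and in the right panel replicate 1 of MT (8.31% best, 13.1% worst) and of MT siDRR run against the other lists.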

How the data were processed

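The deposited peak lists of 16 samples were used, 1 list per library, with 5 columns and no header. Per the submitters' processing notes they are in build mm9, and the tools listed there, with no assay assigned to any, are MACS 1.4.2, MACS2, Bowtie2 2.2.4, Bowtie 1.1.1, cutadapt 1.12, bcl2fastq 2.17.1 and CASAVA 1.8.2. The last column is a score per peak made by the authors' peak caller. Its scale, the calling threshold, the control and any shift of ATAC reads were not given in the sources used here, so scores served only to rank peaks within a list. Inputs were not analysed here.

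Peaks on chromosomes 1 to 19 and X were merged within an assay at 1 bp overlap. Ranks are percentiles within a list, with tied scores given their mean rank. Quintiles and deciles are over all regions of an assay. Distances run edge to edge. Each ChIRP summit was extended 250 bp to either side. Shares carry exact (Clopper-Pearson) 95% intervals. No test was made, because 2 libraries of each of 2 assays hold no contrast between groups. The spread is the SD over the 4 single-library pairs.

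Regions were named by rule: the 10 best-ranked SMC3 regions on ATAC, the 10 best with no ATAC peak within 10 kb, and 5 each for the farthest, those with most ATAC regions, the widest with and without ATAC, and the best ATAC regions with and without SMC3. The members and lists were chosen with earlier results of these data known. The gene tables at hand are of another build than mm9, so genes and sequences were not used here. Alternatives were regions of at least 1 library, the better-scoring 50% of each list, lists of equal length, shared bases, merging across 500 bp, 50% overlap, the midpoint window, midpoint distances, the lower rank, peak widths and leaving out each library. Scripts ran in Python 3.11.15 with numpy 2.4.6, pandas 2.3.3 and scipy 1.17.1, and were tested on simulated data with known overlaps.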

Additional observations from a re-analysis of the deposited data

How the results depend on the processing

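Of 111 values recomputed for 9 results, 72 stayed within 1 SD of the library pairs, 24 moved by more without a change of sign and 15 changed sign. With SMC3 regions of at least 1 library, 40.4% of SMC3 and 29.7% of ATAC regions overlapped, the difference by SMC3 rank was -18.1 points and by width 65.8, the difference in distance by rank was -1060 bp, and the differences over ATAC regions were 22.6 points by rank and 26.8 by width. With ATAC regions of at least 1 library, 56.4% of SMC3 regions overlapped, the median distance was 4150 bp, the difference by SMC3 rank was 21.5 points, those in distance were -829 bp by rank and -3132 bp by width, and those over ATAC regions 3.17 points by rank and 3.21 by width. With the better-scoring 50% of each list 14.3% of SMC3 and 3.94% of ATAC regions overlapped, which is within 1 SD of the pairs but over 1.5 times lower, the median distance was 16861.5 bp, the difference in distance by rank -4713 bp, the difference by SMC3 width 40.6 points and by ATAC width 0.31. Merging across 500 bp gave 1.78 points by ATAC width. The cause of these shifts was not tested.

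Leaving out 1 library at a time gave 25.2% to 53.7% of SMC3 and 7.23% to 28.7% of ATAC regions, median distances of 4915 to 12955 bp, differences of -18.2 to 21.4 points by SMC3 rank and 51.7 to 70.4 by width, -3497 to -433 bp by rank and -11733.5 to -4083 bp by width in distance, and -4.82 to 23.0 points by ATAC rank and -0.63 to 27.0 by ATAC width. The values farthest from those reported came without SMC3 replicate 1 or without ATAC replicate 1. The difference by SMC3 width and both differences in distance kept their sign in every alternative run, and the differences by rank and by ATAC width did not.

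No paired analysis was possible because the results come from no test and the replicate numbers belong to different assays. With the depth unknown, a missing peak cannot be told from an unsequenced one, and the labels name a transfection for ATAC alone. With 2 libraries per assay, the spread of the pairs, which share libraries, is a rough measure.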

Other observations

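In windows of 1 Mb, regions of both assays were numerous in the same places. Over 2590 windows, Spearman's rho between the numbers of SMC3 and ATAC regions was 0.88, as a description across windows that share libraries and mappable sequence. The median window held 4 SMC3 and 13 ATAC regions. SMC3 without any ATAC region was seen in 27 windows, and ATAC without SMC3 in 294. Another 330 windows held neither, and the part of these empty windows in rho was not tested. In the 720 windows with at most 4 ATAC regions, 11.2% of 286 SMC3 regions overlapped ATAC (exact 95% interval 7.78 to 15.4) and the others lay a median of 61626.5 bp away. In the 96 windows with 40 or more, 31.7% of 1554 did (29.4 to 34.0), with 6897.5 bp for the others. The windows were grouped by their ATAC count, which itself sets how often an ATAC region can be met and how far away it lies.

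Intervals between neighbouring SMC3 regions differed widely in the accessible regions they held. Of 13865 intervals between neighbours on a chromosome, 4137 (29.8%) held no ATAC region and 558 (4.02%) held 10 or more, with a maximum of 44. The median interval was 65172 bp long and held 2 ATAC regions. Intervals without an ATAC region were shorter, at a median of 14874 bp against 98700.5 bp for those with one, and the counts are not adjusted for length.

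Myoblast SMC3 peaks were also counted at accessible regions of myotubes. The 2 myoblast lists touched 23.1% and 32.8% of all 38788 ATAC regions. The share of all ATAC regions touched by both lists, or by at least 1, is not given here. The first cannot exceed 23.1%, and the second cannot lie under 32.8%. Of the 27284 ATAC regions with no SMC3 peak of either myotube library, 1638 (6.004%) had an SMC3 peak in both myoblast libraries. At least 1 myoblast library had a peak in 5527 of them (20.3%). Of the 7582 with a peak of myotube SMC3 replicate 2 alone, 2724 (35.9%) had one in both myoblast libraries. Against these bounds, 20.3% lay below and 35.9% above the like share of all ATAC regions. The 1638 and 2724 regions do not overlap as sets. Together they are already a larger share of the 38788 than 6.004%, so that value lay below as well. The myoblast lists are longer than the myotube lists, and the part of list length in these shares was not tested.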
